A study of Mus musculus with 6 samples.

Results

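Transcript levels of the AP-1 and EGR transcription factor genes were examined in RAW264.7 cells, a mouse macrophage-like tumour line. The members were chosen by name: Fos, Fosb, Fosl1 and Fosl2 of the Fos family, Jun, Junb and Jund of the Jun family, and Egr1, Egr2 and Egr3 of the Egr family. All 10 were listed among the 25124 gene symbols of the deposited table. RNA came from 3 libraries of cells labelled E4BP4 knockout and 3 libraries of control cells, all untreated and at fewer than 15 passages. E4BP4 is the bZIP repressor encoded by Nfil3. The sources used here give neither the method of knockout, nor whether 1 clone was used, nor whether replicates came from separate cultures. The p-values therefore measure spread between libraries that may be technical. Nfil3 itself was higher under the knockout label, at 102.8 ± 2.65 TPM, against 30.1 ± 0.803 TPM in the controls (SD, n = 3 each), so every direction below rests on the labels. TPM is a read number corrected for both transcript length and library depth, which lets levels of different genes be compared.

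AP-1 is a dimer of bZIP proteins. Jun proteins pair with one another or with Fos proteins, whereas Fos proteins need a Jun partner, and the dimers bind the short AP-1 element. EGR proteins bind GC-rich sites through zinc fingers. In macrophages, Fos, Jun, Junb, Egr1, Egr2 and Egr3 are early-response genes. Growth factors and Toll-like receptor ligands switch them on within minutes through MAP kinases, without new protein synthesis. For some of them, the serum response factor SRF takes part. Their transcripts are short-lived, so the levels below are those of untreated cells at harvest.

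The promoters of Fos, Fosl2 and Jun are shown because the first of these genes was lower, the second higher and the third not called. Each sequence is the 250 bases before the annotated start, from RefSeq on GRCm38.p6, read 5′ to 3′ in the direction of transcription. Capitals mark the motifs found: in Fos the shortened CRE TGACGT and the TATA box TATAAA, in Fosl2 the EGR site GCGNGGGCG, and in Jun the variant AP-1 site TGACATCA. Fos lies on the plus strand (chr12:85473640-85473889), Fosl2 on the plus strand (chr5:32136222-32136471) and Jun on the minus strand (chr4:95052223-95052472).
Fos: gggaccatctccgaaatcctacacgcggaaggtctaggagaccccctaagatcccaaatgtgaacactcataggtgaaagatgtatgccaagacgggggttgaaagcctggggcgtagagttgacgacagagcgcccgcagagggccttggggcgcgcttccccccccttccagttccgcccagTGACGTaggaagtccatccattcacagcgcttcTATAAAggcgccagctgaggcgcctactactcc
Fosl2: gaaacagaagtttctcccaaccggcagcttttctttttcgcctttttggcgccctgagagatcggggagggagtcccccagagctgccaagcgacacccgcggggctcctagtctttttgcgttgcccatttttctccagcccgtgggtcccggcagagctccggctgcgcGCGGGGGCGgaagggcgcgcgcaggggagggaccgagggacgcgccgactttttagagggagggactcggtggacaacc
Jun: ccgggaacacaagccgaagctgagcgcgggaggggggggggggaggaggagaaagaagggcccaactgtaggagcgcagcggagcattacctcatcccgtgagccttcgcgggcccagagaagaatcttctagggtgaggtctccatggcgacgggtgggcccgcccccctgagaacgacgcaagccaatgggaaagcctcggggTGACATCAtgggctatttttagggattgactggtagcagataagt

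The same table held sequences for 7 of the 10 members, with 11 start windows in all, 5 of them for Egr2. The entries missing were Egr1, Egr3 and Fosl1. The E4BP4 element (D-box), searched as TTACGTAA and TTATGTAA on both strands, was in 0 of the 11 windows and in 0.931% of 32851 promoter windows of the same length genome-wide. The AP-1 site TGACTCA was also in 0 of the 11 and in 4.46% of all windows, and the full CRE TGACGTCA in 0 of the 11 and in 1.55% of all. The EGR site was in Fosl2, 79 to 71 bases before the start, and in Fosb, 50 to 42 bases before it, against 4.70% of all windows. The shortened CRE, which the full CRE contains, was 66 to 61 bases before the Fos start and in 3 of the 5 Egr2 windows (6.47% of all windows). Those 3 windows overlap, and the match is the same genomic site in each. The TATA box, searched on the sense strand only, was 33 to 28 bases before the Fos start (7.59%). The variant AP-1 site of Jun lay 45 to 38 bases before the start (2.93%). The CArG box, which SRF binds, was in 4 of the 5 Egr2 windows and in 1.47% of all. The 3 Egr2 windows that overlap hold the same CArG site. Only 250 bases per window were searched, so sites further upstream are not covered. An ETS site, CCGGAAGT, was in none of the 11 windows (2.88% of all). A match describes letters in a window and does not show binding.

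The 10 genes spanned a wide range of levels, with the Jun family far above the Fos and Egr families. Jund, which encodes the Jun protein most often present in unstimulated cells, was the highest, at 162.5 ± 2.68 TPM in the libraries labelled knockout and 151.6 ± 13.8 TPM in the controls (SD, n = 3 each). Its percentile of level among all listed symbols was 97.7 under the knockout label and 97.4 in the controls. Junb and Jun followed, then Fosl2, Fos and Egr1 in the libraries labelled knockout as in the controls. In the libraries labelled knockout, Fosl1 (0.496 to 0.875 TPM) and Egr3 (0.518 to 0.564 TPM) came next and overlapped. In the controls, Egr1 (0.492 to 0.624 TPM) and Egr3 (0.452 to 0.636 TPM) overlapped. Egr2 and then Fosb were lowest under both labels. Jun and Junb overlapped in the controls, but Jun was the lower of the pair in 6 of 6 libraries.

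**Figure D1:**
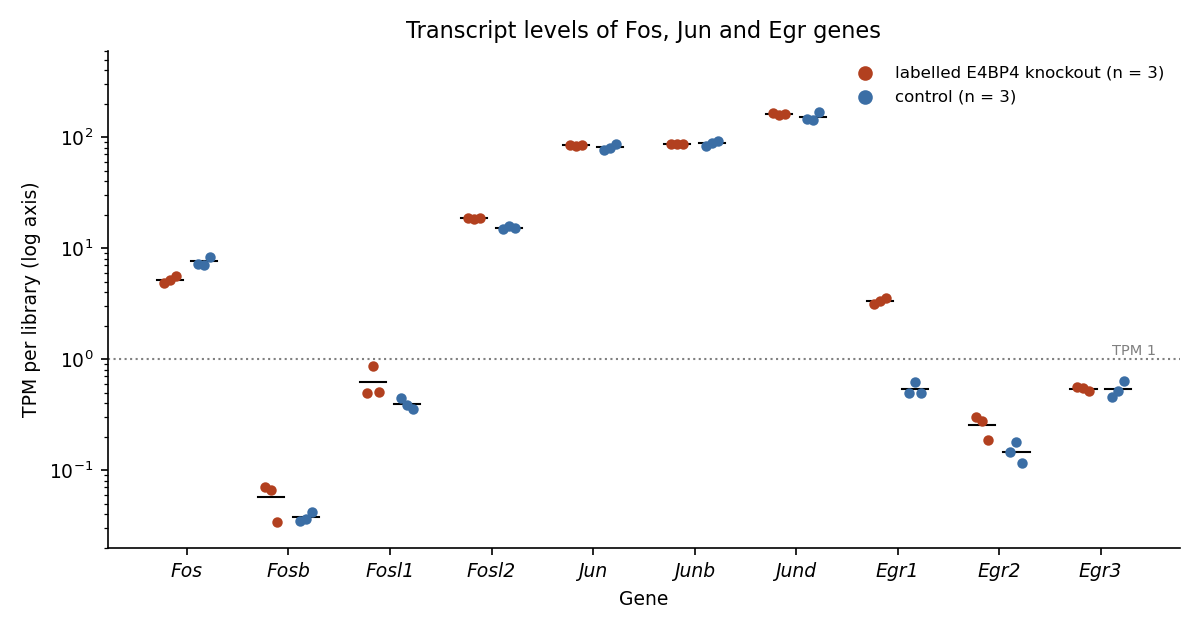
TPM of each gene (log axis) in the 3 libraries labelled E4BP4 knockout and the 3 controls; points are libraries, black lines are group means, and the dotted line is the filter of 1 TPM. Egr1 stands at 3.13 to 3.58 TPM in the libraries labelled knockout, against 0.492 to 0.624 TPM in the controls, Fos is lower and Fosl2 higher with no overlap, and the 3 Jun genes overlap.

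Testing required a TPM of 1 or more in 3 of the 6 libraries, which 6 of the 10 members met: Fos, Fosl2, Jun, Junb, Jund and Egr1. Egr1 passed only through the libraries labelled knockout. In limma on log2(TPM + 1), at a Benjamini-Hochberg adjusted p under 0.05 over 11257 genes, Egr1 and Fosl2 were higher and Fos was lower under the knockout label. Genes called in either direction made up 50.1% of all genes tested, with 26.7% higher and 23.4% lower, so 3 called of 6 is a share at the background. The groups did not overlap for 3 of the 6 tested members, against 58.5% of all genes tested. Counting the members under the filter, they did not overlap for 5 of the 10, but the 58.5% covers tested genes only. The share among genes under the filter was not computed. What follows is therefore a description of single genes, not of the families as sets.

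Egr1 had the largest log2 fold change among the 6 tested members. It encodes an early-response zinc-finger activator of cytokine and growth factor genes. Egr1 had 3.13, 3.35 and 3.58 TPM in the libraries labelled knockout, against 0.497, 0.624 and 0.492 TPM in the controls. Every library labelled knockout lay above every control. The means were 3.35 ± 0.227 TPM under the knockout label and 0.538 ± 0.0748 TPM in the controls (SD, n = 3 each), a ratio of 6.24. The values rested on 148, 173 and 179 whole reads under the knockout label and on 24, 29 and 20 reads in the controls. The log2 fold change was 1.5 (SE 0.0952, 95% interval 1.29 to 1.72, limma adjusted p = 1.99e-06). That is a larger absolute value than 98.5% of all called genes had. Its size depended on the scale, because the control level lay below the pseudocount: it was 2.44 with a pseudocount of 0.1, 2.60 with limma-voom on recovered reads and 0.76 on the stabilized values, and the authors' deposited table gave 2.63. Without a filter on low values, which removes the effect of selecting it through one group, the limma adjusted p was 5.30e-05.

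Egr2 and Egr3 stayed under the filter and were not tested. Egr2, which takes part in monocyte and macrophage differentiation, had 0.3, 0.275 and 0.189 TPM under the knockout label, against 0.147, 0.178 and 0.116 TPM in the controls. The lowest library labelled knockout lay just above the highest control. This rested on 32 reads in all, or 0.554 RPM (reads scaled to the recovered total; exact Poisson 95% interval 0.379 to 0.782), against 17 reads, or 0.328 RPM (0.191 to 0.525), and these intervals cover counting error only. With no filter, its log2 fold change of 0.13 did not pass (limma adjusted p = 0.0707). Egr3 had 0.564, 0.548 and 0.518 TPM under the knockout label and 0.452, 0.522 and 0.636 TPM in the controls, and the groups overlapped. Its log2 fold change with no filter was 0.01 (95% interval −0.12 to 0.14, limma adjusted p = 0.948). The pseudocount narrows this interval too, since every Egr3 value lay below 1 TPM. The authors' table gave 0.05.

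Fos and Fosl2, the main Fos-family transcripts, differed in opposite directions. Fos, the early-response member with strong activation domains, had 4.84, 5.14 and 5.64 TPM in the libraries labelled knockout, against 7.25, 7.12 and 8.40 TPM in the controls. Every library labelled knockout lay below every control. Fos fell to 5.21 ± 0.401 TPM under the knockout label, against 7.59 ± 0.703 TPM in the controls (SD, n = 3 each), a ratio of 0.686 and a log2 fold change of −0.47 (SE 0.0791, limma adjusted p = 0.000927). Its reads were 157, 182 and 193 under the knockout label, against 240, 227 and 234 in the controls. The authors' deposited table gave a log2 fold change of −0.55.

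Fosl2 encodes FRA-2, which lacks the strong activation domain of Fos. It had 18.8, 18.4 and 18.7 TPM in the libraries labelled knockout, against 14.8, 15.8 and 15.2 TPM in the controls. The groups did not overlap, and replicates lay close together. Fosl2 rose to 18.6 ± 0.229 TPM under the knockout label, against 15.3 ± 0.508 TPM in the controls (SD, n = 3 each), a ratio of 1.22 and a log2 fold change of 0.27 (SE 0.0461, limma adjusted p = 0.000949). Of all called genes, 40.8% had a smaller absolute log2 fold change than Fosl2 and 75.4% a smaller one than Fos. The deposited table of the authors gave Fosl2 a log2 fold change of 0.27.

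Fosl1 and Fosb were rare and were not tested. Fosl1, which encodes FRA-1, had 0.496, 0.875 and 0.506 TPM under the knockout label, against 0.449, 0.388 and 0.355 TPM in the controls. The groups did not overlap, but 1 library labelled knockout stood far above the other 2. In all, 52 reads under the knockout label stood against 30 in the controls. With no filter the log2 fold change was 0.21 and did not pass (limma adjusted p = 0.164). The pseudocount shrinks that value. The ratio of means was 1.57, and the authors' deposited table gave a log2 fold change of 0.58, with an adjusted p above 0.05. Of the Fosl1 exon bases in the GENCODE annotation, 57.2% are also exon bases of Ccdc85b on the opposite strand, so part of these reads may belong to that gene. Fosb had 0.0340 to 0.0710 TPM under the knockout label, from 10 reads in all, and 0.0350 to 0.0420 TPM in the controls, from 6 reads. No difference was detectable at that depth (log2 fold change 0.03 with no filter, limma adjusted p = 0.465). The ratio of means was 1.51 and the authors' log2 fold change 0.73, with an adjusted p above 0.05. So few reads do not settle the size of a difference.

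The Jun genes were not called. Jun, the founding AP-1 member and the usual Fos partner, had 85.7, 82.4 and 84.2 TPM under the knockout label, against 76.0, 80.5 and 86.0 TPM in the controls. The control range enclosed the other. Its log2 fold change was 0.06 (95% interval −0.05 to 0.17, limma adjusted p = 0.337). Junb, which can restrain Jun on some promoters, had 86.0, 86.8 and 86.1 TPM under the knockout label, against 83.3, 87.9 and 91.9 TPM in the controls, again with the control range on both sides. Its log2 fold change was −0.02 (95% interval −0.12 to 0.07, limma adjusted p = 0.684). Jund had 165.1, 159.8 and 162.6 TPM under the knockout label, against 144.5, 142.8 and 167.6 TPM in the controls. Its log2 fold change of 0.10 (95% interval −0.03 to 0.23) did not pass (limma adjusted p = 0.168).

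Control replicate 3 was the highest control library for Jun, Junb, Jund and Fos alike. It also had the fewest recovered reads of the 6 libraries, 15615720. Without it, the log2 fold change of Jund was 0.18 and passed (limma adjusted p = 0.00685), and that of Junb turned to 0.01. The value of Jun was 0.10 without control replicate 3 (limma adjusted p = 0.0973) and 0.015 without control replicate 1 (limma adjusted p = 0.779). Among the controls, the coefficient of variation of the Jun genes was 4.89% to 9.13%, against 0.485% to 1.97% under the knockout label. Exon bases of Jun, Junb and Jund also overlap genes on the opposite strand. The overlaps are Junos on 7.3% of the Jun exon bases, Prdx2 on 7.5% of those of Junb, and Gm11175 on 52.6% of those of Jund. These are percents of the exon bases in the GENCODE annotation, not of the deposited RefSeq transcript. For Jund, 877 exon bases are shared, and the deposited transcript length is 2875 bases. The kit does not mark strand, so reads of such pairs cannot be told apart.

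**Figure D2:**
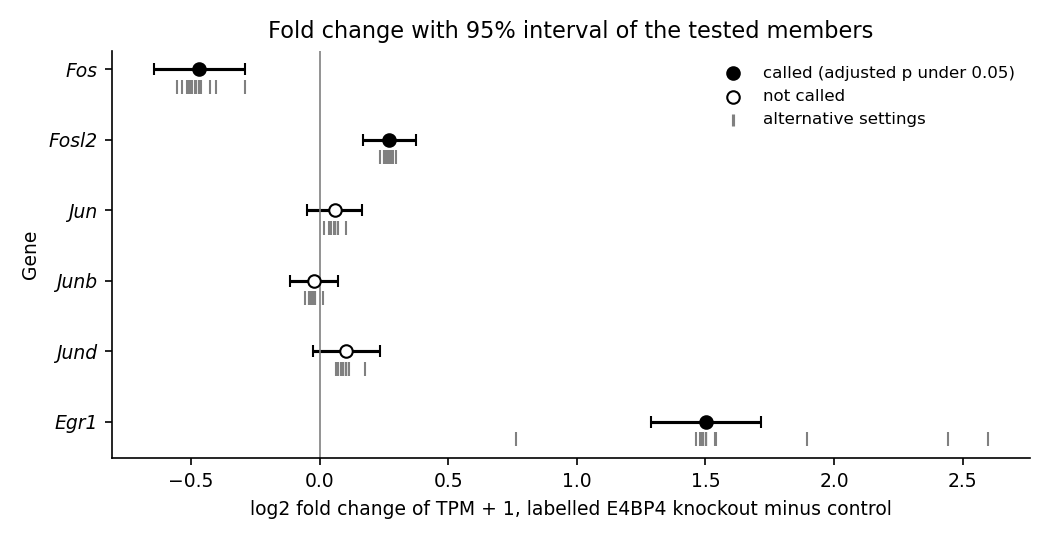
Log2 fold change with 95% interval for the 6 tested members (limma on log2(TPM + 1), n = 3 per group); filled points passed an adjusted p under 0.05, and grey ticks are the alternative settings, of which limma-voom and the stabilized values use other scales. Fos lies at −0.47, Fosl2 at 0.27 and Egr1 at 1.5, while the intervals of the 3 Jun genes include 0.

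The makeup of the Fos and Egr families differed between the labels. Summed TPM of the Fos family was 24.5 ± 0.306 in the libraries labelled knockout and 23.3 ± 0.716 in the controls (SD, n = 3 each). Fosl2 made up 76.0 ± 1.47% of that sum under the knockout label and 65.6 ± 2.20% in the controls. Fos made up 21.2 ± 1.37% under the knockout label and 32.6 ± 2.30% in the controls. Within a library, Fosl2 exceeded Fos by 3.89, 3.57 and 3.31 times under the knockout label, against 2.04, 2.22 and 1.81 times in the controls, with no overlap. Shares within the Jun family differed by less. Junb held 25.5%, 26.4% and 25.9% of the Jun sum under the knockout label, against 27.4%, 28.2% and 26.6% in the controls. Its groups parted only by 26.4% against 26.6%. Jund held 49.0%, 48.6% and 48.8% under the knockout label, against 47.6%, 45.9% and 48.5% in the controls. Its groups parted only by 48.6% against 48.5%. The share of Jun overlapped, at 25.3 ± 0.200% under the knockout label and 25.3 ± 0.532% in the controls. Within a library, Jun over Junb was 0.950 to 0.997 under the knockout label, against 0.912 to 0.936 in the controls, and Jund over Junb was 1.84 to 1.92, against 1.62 to 1.82 in the controls. Summed TPM of Egr1, Egr2 and Egr3 was 4.15 ± 0.150 under the knockout label and 1.22 ± 0.116 in the controls. Egr4 was not among the members and is left out of that sum. Its mean was 0.89 TPM under the knockout label and 0.568 TPM in the controls, where Egr1 and Egr3 averaged 0.538 and 0.537 TPM. Shares of a sum with Egr4 would be smaller, most of all in the controls. Egr1 made up 80.7 ± 2.61% of the sum without Egr4 under the knockout label, against 44.0 ± 3.96% in the controls, where Egr3 held as much (43.9 ± 6.30%). These shares follow from the levels above and were not tested, and no background for their overlap was computed. Shares of the same sum also depend on each other.

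**Figure D3:**
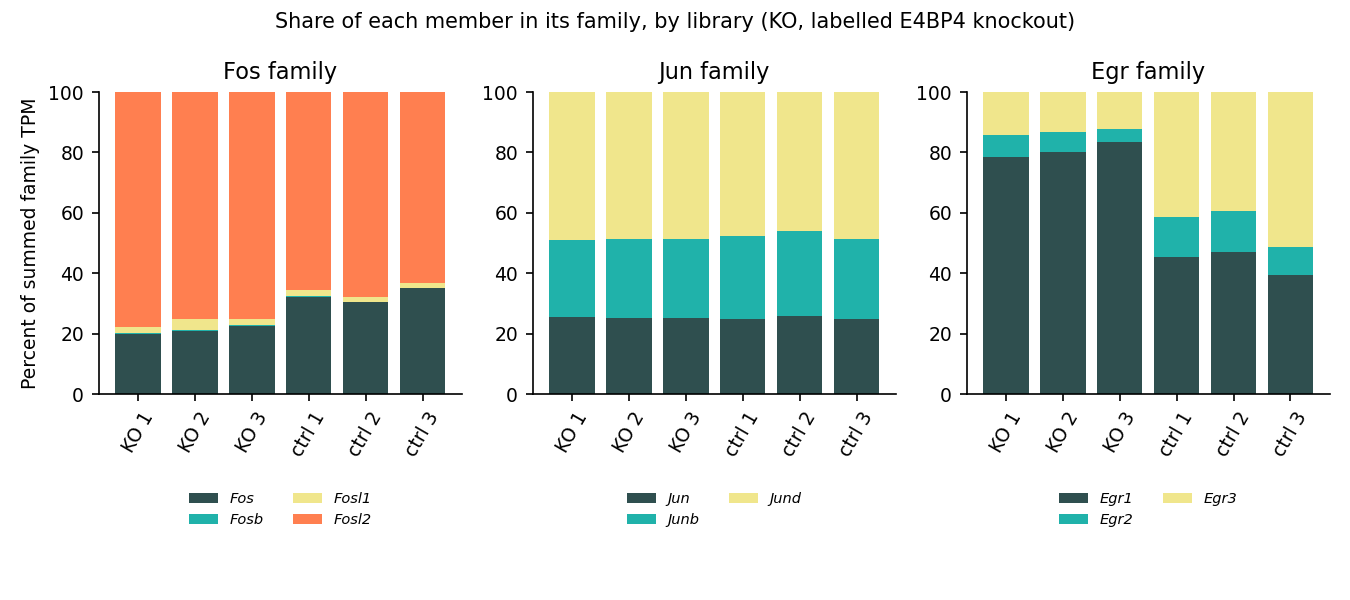
Share of each member in the summed TPM of its family (percent), 1 bar per library, with libraries labelled E4BP4 knockout (KO) on the left and controls on the right. The Egr sum leaves out Egr4. Fosl2 holds 75.1% to 77.7% of the Fos family under the knockout label, against 63.3% to 67.7% in the controls, Egr1 holds 78.4% to 83.5% of the Egr family, against 39.5% to 47.1%, and in the Jun family Junb holds 25.5% to 26.4%, against 26.6% to 28.2%.

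The members lie on 9 chromosomes, and the median log2 fold change of tested genes near each called member lay close to 0. In mm10, Egr1 spans chromosome 18 from 34861207 to 34864956 on the plus strand, with coding sequence in 2 exons. The 24 tested genes within 1 Mb of Egr1 had a median log2 fold change of 0.00, with 8 higher and 7 lower. Fos spans chromosome 12 from 85473890 to 85477274, with 4 exons, and its 20 tested neighbours had a median of −0.03. Fosl2 spans chromosome 5 from 32136472 to 32157839, with 4 exons, and its 21 tested neighbours had a median of −0.01. Jun (chromosome 4, 95049036 to 95052222), Junb (chromosome 8, 84976909 to 84978748) and Jund (chromosome 8, 70697739 to 70700616) have 1 exon each. Fosb lies on chromosome 7, whose 878 tested genes had a median of 0.24, against 0.02 for all genes tested. Its own 10 and 6 reads do not allow a comparison with that shift. Of the genes named below, Ppp1r15a and Det1, called higher, and Itgam and Cebpa, called lower, also lie on chromosome 7. Whether that shift has a part in their values was not tested.

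Genes that pair with, regulate or answer to these factors were read from the same fit in 9 lists, with 101 genes tested. Of these, 36 were higher and 25 lower under the knockout label, so 60.4% were called, against 50.1% of all genes tested. Their median log2 fold change was 0.04, against 0.02 for all. The lists were chosen with earlier results of these data known, so a share above the background cannot be read as a trait of the lists. They are described below by counts, since no set test was run.

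Among bZIP partners and relatives, 3 of 13 tested were higher and 5 lower, with a median of 0.05. Batf3, a Jun partner needed by a class of dendritic cells, fell to 4.41 ± 0.313 TPM under the knockout label, against 17.2 ± 0.825 TPM in the controls (log2 fold change −1.75, limma adjusted p = 6.40e-08, with SDs over 3 libraries each here and below). Maf, a large Maf factor of macrophages, fell to 9.0 ± 0.173 TPM, against 26.0 ± 0.494 TPM in the controls. Jdp2, a bZIP repressor that dimerizes with Jun, rose to 60.4 ± 1.63 TPM under the knockout label, against 25.1 ± 1.26 TPM in the controls (log2 fold change 1.23, limma adjusted p = 6.95e-08). Atf3, a stress-induced Jun partner and the most abundant of the list, rose to 223.6 ± 3.24 TPM, against 179.5 ± 6.49 TPM in the controls. The other bZIP genes called included Creb1, higher, and Mafk and Mafg, lower. Without control replicate 3, 3 of the list were lower instead of 5. Batf was listed at 0 in 5 of 6 libraries.

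The corepressors that bind EGR proteins split. Nab2, itself a known EGR target, fell to 12.9 ± 0.108 TPM under the knockout label, against 17.1 ± 0.585 TPM in the controls (log2 fold change −0.38, limma adjusted p = 0.000138). Nab1 rose to 35.3 ± 1.78 TPM, against 28.1 ± 1.74 TPM in the controls (log2 fold change 0.32). Of 9 tested genes reported as EGR targets, these included, 4 were higher and 2 lower, with a median of 0.07, and 2 were higher under the filter of TPM 5. Pdgfa, a platelet-derived growth factor gene, rose to 8.67 ± 0.700 TPM, against 5.13 ± 0.643 TPM in the controls, and Cdkn1a, which encodes the cell cycle inhibitor p21, fell to 75.9 ± 1.71 TPM, against 89.3 ± 0.895 TPM. Pdgfb, the most abundant of that list, measured 119.4 ± 4.54 TPM under the knockout label and 130.6 ± 7.67 TPM in the controls and did not pass (limma adjusted p = 0.0562).

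Upstream of the early-response genes, SRF and its cofactors had 2 of 6 higher and 1 lower, with a median of −0.02. Elk3, a ternary complex factor that can repress SRF targets, fell to 10.7 ± 0.810 TPM under the knockout label, against 19.8 ± 0.679 TPM in the controls (log2 fold change −0.83, limma adjusted p = 4.96e-06). Mrtfb, an actin-regulated SRF coactivator, rose with a log2 fold change of 0.39. Elk4 was called narrowly (log2 fold change 0.24, limma adjusted p = 0.0454). In 7 of 16 alternatives the list held 1 higher call instead of 2. Under the filter of TPM 5, which is among these, the gene that dropped out was Mrtfb. Srf itself had 36.9 ± 0.542 TPM under the knockout label and 37.0 ± 1.22 TPM in the controls and did not pass, nor did Mrtfa, the most abundant of the list. In the MAP kinase cascade, 8 of 23 were higher and 4 lower, all by small amounts, with a median of 0.05. Map2k6, a kinase gene of the p38 branch, rose to 6.07 ± 0.545 TPM under the knockout label, against 4.18 ± 0.556 TPM in the controls (log2 fold change 0.45, limma adjusted p = 0.00293). Rps6ka1, which encodes the ERK-activated kinase RSK1, fell to 41.4 ± 3.27 TPM, against 55.3 ± 1.26 TPM in the controls (log2 fold change −0.41).

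Other early-response genes did not move as a block: 11 of 25 tested were higher and 7 lower, with a median log2 fold change of 0.03. Ppp1r15a, which encodes the phosphatase subunit GADD34, rose 2.97-fold to 30.5 ± 1.26 TPM under the knockout label, against 10.3 ± 0.235 TPM in the controls (limma adjusted p = 4.46e-08). Dusp1, a MAP kinase phosphatase gene, and Pim1, a survival kinase gene, rose 1.79-fold and 1.56-fold. Gadd45b, a stress-response gene, fell to 10.8 ± 0.316 TPM, against 21.5 ± 0.987 TPM in the controls. Rhob, a small GTPase gene and the most abundant of those not called, measured 68.8 ± 0.991 TPM under the knockout label and 74.0 ± 3.78 TPM in the controls.

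Genes reported as AP-1 targets also split, with 5 of 15 tested higher, 6 lower and a median of −0.13. The matrix protease genes Mmp9 and Mmp12 rose to 101.4 ± 7.47 and 887.7 ± 33.0 TPM under the knockout label, against 35.8 ± 0.721 and 447.8 ± 39.5 TPM in the controls. Mmp13, the other matrix protease gene tested, fell to 2.91 ± 0.170 TPM under the knockout label, against 5.82 ± 0.327 TPM in the controls (log2 fold change −0.80, limma adjusted p = 1.87e-05). Ptgs2, the inducible cyclooxygenase gene, rose 1.85-fold. Spp1, which encodes osteopontin, fell to 1029 ± 27.7 TPM, against 2118 ± 119.4 TPM in the controls (log2 fold change −1.04, limma adjusted p = 1.98e-07). Of 8 tested genes of Fos and Jun protein turnover, 2 were higher and 0 lower. They were Det1, an adaptor of the COP1 ubiquitin ligase that targets Jun (log2 fold change 0.63, limma adjusted p = 5.16e-05), and Cops5, a COP9 signalosome subunit that binds Jun (0.26). Of 7 genes acting on AU-rich transcripts such as that of Fos, Khsrp and Tia1 were higher by 0.14 and 0.15 on the log2 scale. None was lower in that fit, but 1 or 2 were in 7 alternatives, and no gene was called higher without replicate 1 of the libraries labelled knockout.

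**Figure D4:**
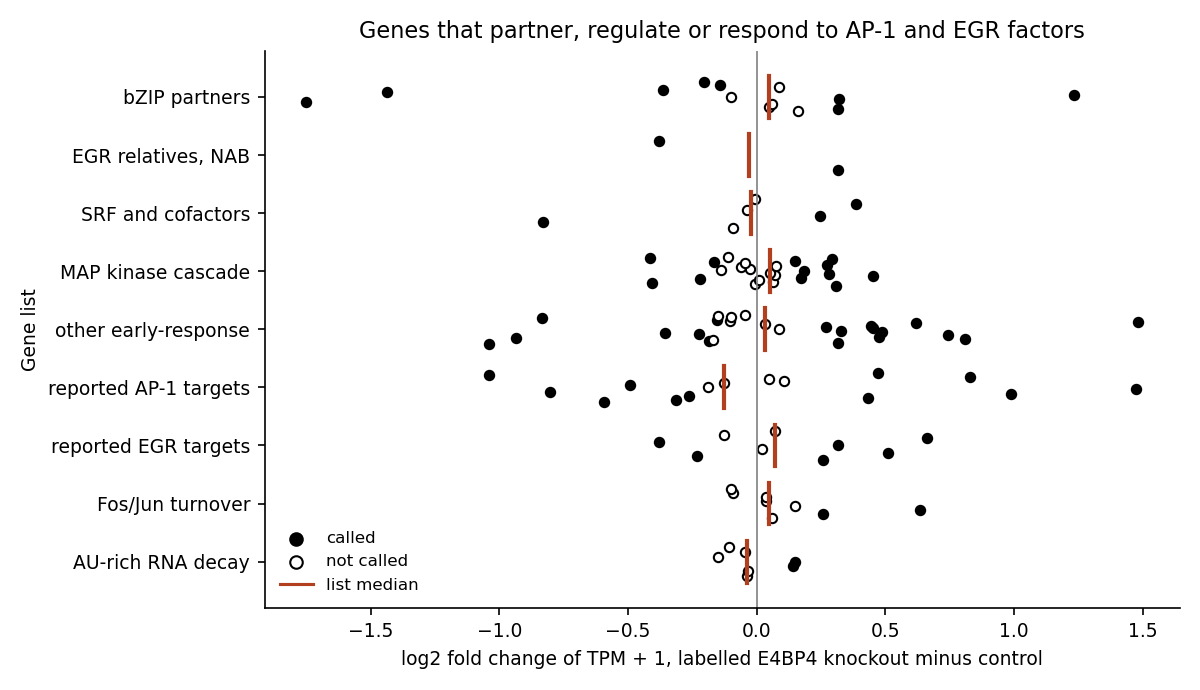
Log2 fold changes of log2(TPM + 1), labelled E4BP4 knockout minus control, for tested genes in 9 lists; each point is a gene, filled where called, and the red bar is the list median. Called genes lie on both sides of 0 in 7 of the 9 lists, and the medians run from −0.13 to 0.07.

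The genes with the most similar profile over the 6 libraries were found by the root mean square difference of log2(TPM + 1), each gene centred on its own mean, among 8583 tested genes with a mean of at least 5 TPM. For Egr1 the nearest were Mmp9 (difference 0.072), Alox5, which encodes the enzyme that starts leukotriene synthesis (0.075), and Grap, an adaptor protein gene (0.076). Alox5 measured 16.5 ± 0.588 TPM under the knockout label and 4.96 ± 0.169 TPM in the controls. For Fos the nearest were Cox20, a cytochrome c oxidase assembly gene (0.030), Cebpa, a myeloid bZIP factor gene (0.046), and Tnfaip8l1 (0.050). Cebpa measured 10.5 ± 0.678 TPM under the knockout label and 14.1 ± 0.951 TPM in the controls. No Jun gene was called, so none was matched. The likeness to Egr1 holds on the log2(TPM + 1) scale, on which the pseudocount reduces the difference of a low gene. The ratio of means was 6.24 for Egr1 and 2.83 for Mmp9.

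Recovered reads numbered 18373052 to 19867922 in the libraries labelled knockout and 15615720 to 18110957 in the controls. All 10 macrophage markers passed the filter, including Cd68, Itgam, Lyz2 and Spi1, and 3 were higher and 5 lower under the knockout label. Their summed TPM was 4180 to 4320 under the knockout label and 3010 to 3240 in the controls, and its part in the results above was not tested. Lyz2, a lysozyme gene, the most abundant of them, measured 2218 ± 49.2 TPM under the knockout label and 1069 ± 78.3 TPM in the controls. Csf1r, the receptor gene for macrophage colony-stimulating factor, was lower, at 159.2 ± 7.31 TPM under the knockout label and 248.4 ± 7.70 TPM in the controls, as were Cd68, Fcgr1 and Itgam. Adgre1, which encodes F4/80, was low, at 1.53 ± 0.225 TPM under the knockout label and 2.73 ± 0.505 TPM in the controls. Summed TPM of the T cell, B cell, epithelial and endothelial lists stayed at or below 0.444 under the knockout label and 0.636 in the controls, and that of the fibroblast list at or below 0.943 under the knockout label and 1.08 in the controls. Cd3g, Krt8, Mpo and S100a9 were listed at 0 in all 6 libraries. Of the neutrophil list, S100a8 alone reached a TPM of 1 (5.48 ± 0.621 under the knockout label, 5.29 ± 0.753 in the controls). As these are bulk samples, fewer cells with a transcript and less transcript per cell cannot be told apart.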

How the data were processed

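RNA was measured in 3 libraries of RAW264.7 cells labelled E4BP4 knockout and 3 control libraries. Per the labels' protocols, the input was polyadenylated RNA and the kit NEBNext Ultra RNA. Tools in the submitters' processing notes are STAR 2.7.5a, HOMER 4.11.1, bcl2fastq and DESeq2, and the build is mm10. The authors deposited TPM values for 1 RefSeq transcript per symbol, and a second deposited table with log2 values per library on a stabilized scale whose transform is not given, the log2 fold change of the authors, headed WT vs. TG (TG was read as the group labelled knockout), and its p-values. The sources used here do not say how reads of near-identical or overlapping genes were assigned.

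TPM was compared with limma 3.58.1 in R 4.3.3 on log2(TPM + 1) with a mean-variance trend, two-sided, without covariates, with Benjamini-Hochberg adjustment over all 11257 genes tested. All log2 fold changes are labelled knockout minus control and understate changes of low genes. TPM times length fell on whole multiples of 1 step per library for 100% of checked values (within 0.1), and the whole reads so recovered served for depth and a limma-voom alternative. All 6 libraries were counted as replicates. Replicate pairs differed beyond sampling noise (chi-square 1.74 to 5.50 per degree of freedom), which does not show that they came from separate cultures. Members and lists were chosen with earlier results of these data known. Named genes were all members, Nfil3, up to 4 per list by smallest adjusted p, the most abundant list member not called where singled out, and the 3 nearest profiles of the most changed called member per family. Other genes named were chosen after their values were seen, and some genes the rule picks are not reported here. The tests were checked on simulated data. Figures used matplotlib 3.10.9. Alternatives were other pseudocounts, filters and scalings, limma-voom, the stabilized values, no trend, a replicate block and leaving out each library.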

Additional observations from a re-analysis of the deposited data

How the results depend on the processing

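Fos stayed lower, and Fosl2 and Egr1 higher, past the threshold in every alternative that tested them (adjusted p at most 0.00769, 0.00641 and 5.30e-05). Egr1 dropped out with a filter of TPM 5, which left 1 member called higher. The log2 fold change of Fos ran from −0.55 to −0.29, with −0.52 to −0.40 when a library was left out, and that of Fosl2 from 0.23 to 0.29, with 0.25 to 0.30. Scaling by upper quartile or median of ratios kept the sign of all 6 tested members. Leaving out 1 library gave 0.015 to 0.10 for Jun, 0.062 to 0.18 for Jund and −0.06 to 0.012 for Junb. Without control replicate 3, Jund was called (0.18) and Junb turned to 0.012, so members called higher ran from 2 to 3. The cause was not tested. All genes called numbered 4740 to 6168 over the alternatives. Of the called genes, 53.2% were higher, and no alternative moved that share by over 5 percentage points. Same-numbered libraries did not deviate together (correlations −0.058 to 0.003), so numbers were not taken as pairs. A replicate block gave 5297 calls instead of 5639 and left the calls of the 6 members unchanged. Fosb, Fosl1 and Egr2, at 6 to 52 reads per group, are limited by depth.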

Other observations

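Egr4 and the EGR-responsive gene F3, both under the filter and picked after their values were seen, had groups that did not overlap. That held for 58.5% of all genes tested, and the share among genes under the filter was not computed. Egr4 had 1.12, 0.749 and 0.802 TPM under the knockout label, from 92 reads, and 0.474, 0.492 and 0.739 TPM in the controls, from 53 reads. Its groups thus parted only by 0.749 against 0.739 TPM. F3, which encodes tissue factor, had 0.521, 0.668 and 0.723 TPM under the knockout label, from 58 reads, and 0.272, 0.106 and 0.162 TPM in the controls, from 15 reads. Neither was tested.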
